A study of Mus musculus with 6 samples.

Results

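The liver of a mouse fed ergosterol was compared with the liver of a mouse fed a diet low in sitosterol, both lacking the sterol transporter gene Abcg8. Genes were taken into the comparison when they reached 1 CPM (counts relative to the library total) in at least 1 of the 2 livers, which left 11872 of the 33639 gene symbols in the table. Both mice were male with a knockout of Abcg8 in the whole body, so the knockout is shared and is not what was compared. Until weaning their diet was low in sterols and contained 0.005% ezetimibe, which blocks sterol uptake in the gut, and the ergosterol or low sitosterol diet then followed for 12 weeks. Each group was 1 mouse and 1 library, out of 6 libraries in the series. Age beyond these weeks, the hour of collection, feeding state and the sterol content of each diet are not stated in the labels. The stated aim of the series was to learn what sterols other than cholesterol, given in the diet, do to gene expression in liver.

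Abcg5 and Abcg8 together form the pump by which hepatocytes and enterocytes expel plant and fungal sterols, and without it such sterols accumulate. Sitosterol is a plant sterol, and ergosterol is the membrane sterol of fungi, whose side chain bears a methyl branch where that of sitosterol bears an ethyl branch. The liver senses lipids through nuclear receptors: PPARA responds to fatty acids and switches on their oxidation, LXR responds to oxidised sterols and switches on sterol export and fatty acid synthesis, FXR responds to bile acids, and SREBP2 raises cholesterol synthesis when membrane sterol falls. Unfolded protein in the endoplasmic reticulum is sensed separately and raises the chaperones of that compartment.

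Library totals were 49125137 estimated counts for low sitosterol and 47789184 for ergosterol, and 18327 and 18227 genes had counts. Levels are given as scaled CPM, CPM after correction of each total by the TMM method over the 4 livers of the series, with factors of 0.82 and 0.93. Ratios are ergosterol over low sitosterol on the log2 scale, each with an exact (Clopper-Pearson, conditional binomial) 95% interval that covers counting error only. A gene is called higher or lower below when it differed at least 2-fold with an interval excluding equality. With 1 mouse a side there is no replicate check, no p-value and no measure of how mice on one diet differ, so every difference is between 2 libraries. In whole liver, fewer cells of a type and less RNA per cell cannot be told apart. Levels in the high sitosterol and stigmasterol livers are set beside some genes as levels only, because their comparisons would use the same low sitosterol library.

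The low sitosterol library stood apart from the others in its adrenal transcripts. It held transcripts of the adrenal cortex at a median of 0.139% of their level in the low sitosterol adrenal library, against 0.00545% in the ergosterol liver. Cyp11a1, the enzyme that starts steroid hormone synthesis, had 702 and 15 counts, and Star, which carries cholesterol into mitochondria, 1044 and 80. The adrenal genes Hsd3b1, Cyp11b1, Cyp21a1, Nr5a1 and Akr1b7 and the chromaffin granule genes Chga and Chgb were lower too, with log2 ratios from -3.43 to -5.98. With that share of the adrenal library subtracted from the low sitosterol liver, 662 genes were higher and 551 lower, close to the counts below. Both libraries were liver by their markers: 6 hepatocyte genes, Alb among them, summed to 117075 and 110591 scaled CPM, and 4 kidney tubule genes were at 0 in both, a limit of 0.0741 and 0.0672 scaled CPM for 3 counts.

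By this rule 628 genes (5.29%) were higher and 574 genes (4.83%) lower in the ergosterol liver, and 89.9% of genes lay within 2-fold. The median log2 ratio of all genes was 0.01, with quartiles at -0.31 and 0.35. At 4-fold, 130 genes were higher and 157 lower, and at 16-fold 23 and 41. Of the 1202 calls, 75 had fewer than 10 counts in the lower library. The even split depends on the scaling. With total counts the median moved by 0.18, and 949 genes were higher and 427 lower (69.0% of calls higher). With log2(TPM + 0.1) values, called at 2-fold alone with no interval, the shift was 0.37, with 1477 higher and 299 lower (83.2%). Differences below are therefore to be read relative to the median gene. TPM ratios given below are not centred on it, and the all-gene median was 0.39 on log2(TPM + 0.1) and 0.29 on log2(TPM + 1). Ratios also rose with transcript length: the median was -0.46 for protein-coding genes whose longest transcript had 500 to 1000 bases (426 genes) and 0.20 above 6000 bases (1632 genes). Among the shorter group 2.82% were higher and 10.3% lower, and among the longer 6.37% and 2.08%. Ratios taken against the median of their length class exist for protein-coding genes only. Among these, 485 of the 568 higher and 415 of the 484 lower calls were kept. Of the calls named below, those of Nsdhl, Hamp, Gstp1, Id3, Ctsc and mt-Atp6 were lost on that scale. Some list medians are also given on it.

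**Figure D1:**
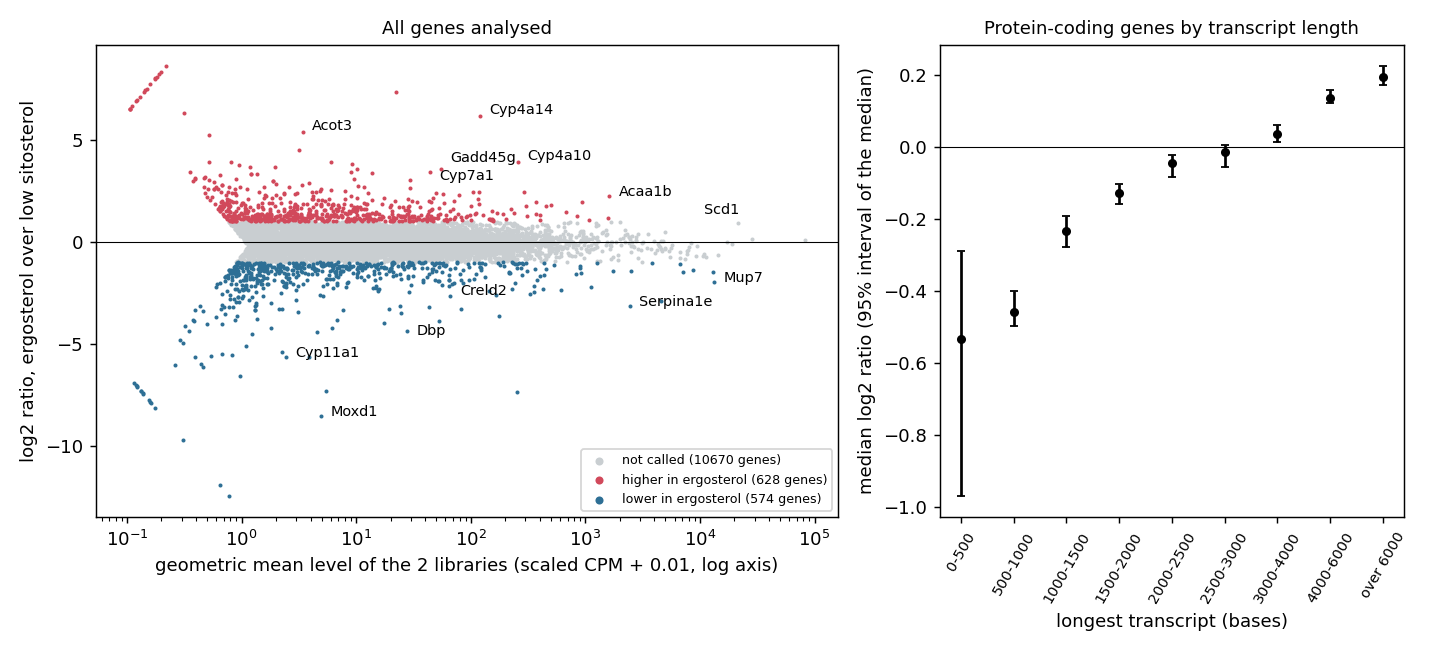
Left, log2 ratio of ergosterol over low sitosterol for 11872 genes against their geometric mean level in scaled CPM (log axis), with the 628 higher genes in red and the 574 lower genes in blue. Right, median log2 ratio of protein-coding genes by length of the longest transcript in bases, with bars for the 95% interval of the median; it climbs from -0.46 at 500 to 1000 bases to 0.20 above 6000.

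The medians of the gene lists spread from -3.84 for adrenal cortex genes to 0.97 for adipocyte genes around the all-gene median of 0.01. Lipid droplet, fatty acid oxidation, LXR target and bile acid synthesis genes lay above it, the apolipoprotein list at -0.0044 lay next to it and cholesterol synthesis below it at -0.28. Lists of protein folding, ribosomes, neutrophils and male-biased genes lay below it. Such positions describe these 2 libraries and single out no list.

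**Figure D2:**
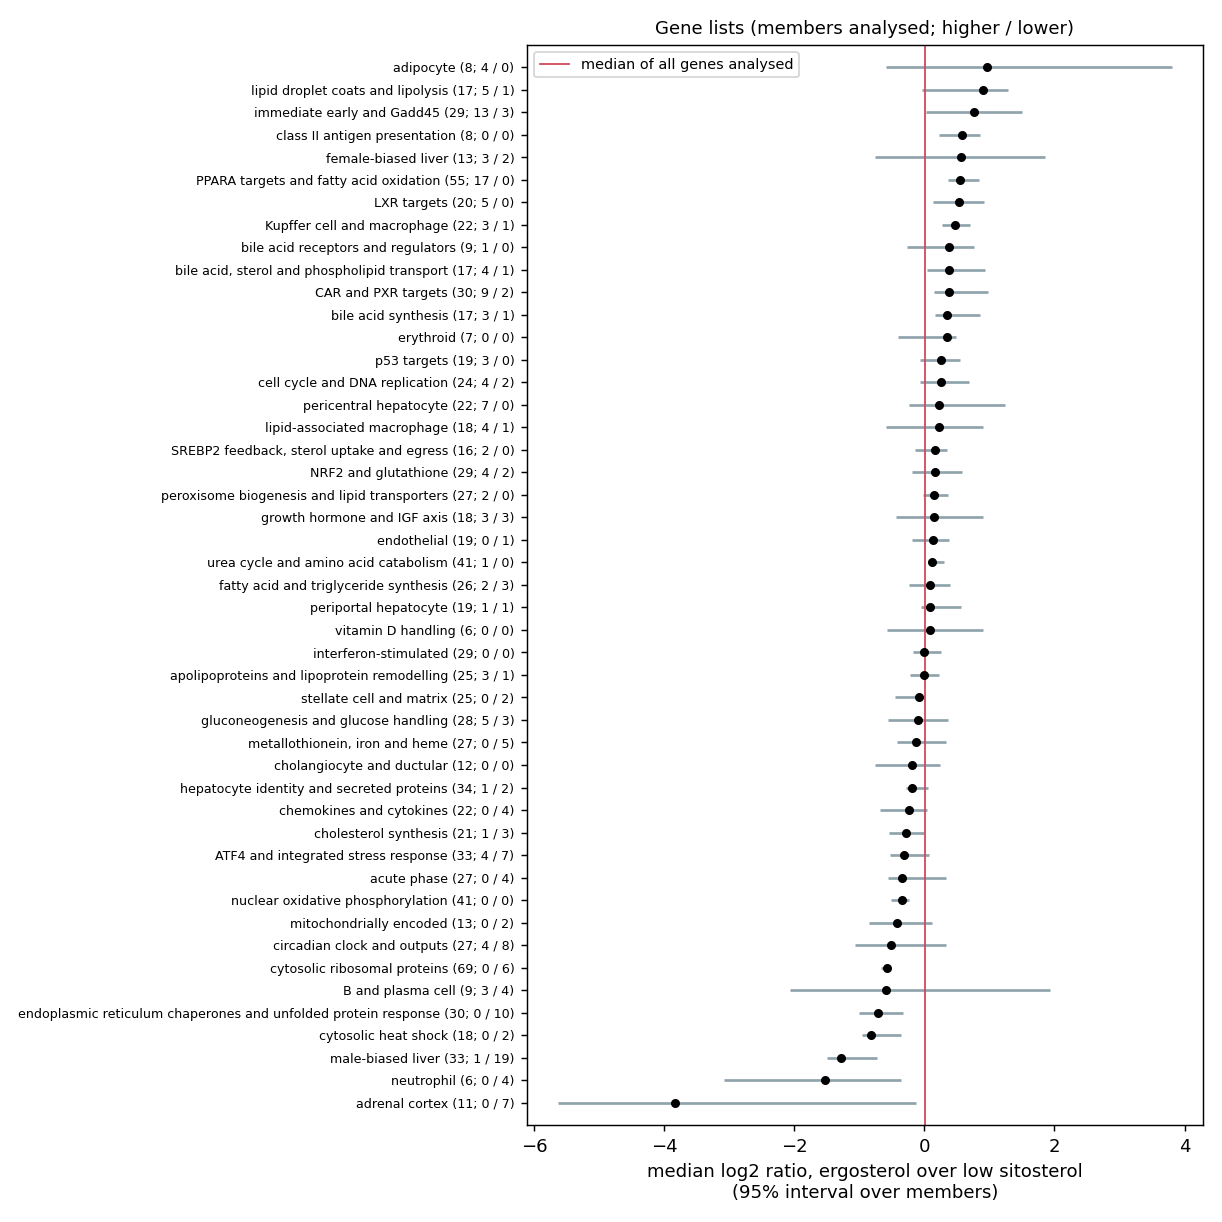
Median log2 ratio of each gene list with at least 6 members analysed, with the order-statistic 95% interval over members; brackets give members analysed, then members higher / lower, and the red line is the all-gene median of 0.01. Adipocyte and lipid droplet genes stand at the top (0.97 and 0.91; the adipocyte median is 0.0041 with no filter on low levels), and male-biased, neutrophil and adrenal cortex genes at the bottom (-1.28, -1.53 and -3.84).

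Abcg8, the knocked-out gene (GRCm38 chromosome 17, 84676302 to 84700333, plus strand), had 51 counts in the low sitosterol liver and 394 in the ergosterol liver. That is 1.26 and 8.82 scaled CPM, a log2 ratio of 2.79 (2.38 to 3.26), and the other livers stood at 10.7 (high sitosterol) and 11.4 (stigmasterol). Transcripts of the gene were thus read in both knockouts. Which exons were deleted is not stated in the labels, and the kit records no strand, so the total over the gene checks neither label. Its partner Abcg5, which lies head to head with it and shares 6710 annotated bases, rose from 11.9 to 72.7 scaled CPM (log2 2.61, 2.48 to 2.76), so reads of one may be counted for the other. The low sitosterol liver was the lowest of the 4 for both genes, since Abcg5 had 189.5 scaled CPM with high sitosterol and 129.5 with stigmasterol.

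Of 55 PPARA target and oxidation genes 17 were higher and none was lower, and the list median was 0.56 (0.36 to 0.84, order-statistic 95% interval over members). The genes at its head were those of microsomal and peroxisomal handling of long fatty acids. Cyp4a14, a P450 enzyme that hydroxylates the far end of fatty acids (chromosome 4, 115486200 to 115496142, minus strand), had 577 counts in the low sitosterol liver and 45052 in the ergosterol liver. Its level went from 14.3 to 1009 scaled CPM, a ratio of 70.7-fold (log2 6.14, 6.03 to 6.27), the highest of any gene named by the rule for ratios. High sitosterol stood at 61.0 and stigmasterol at 371, so the ergosterol library was the highest of the 4 and low sitosterol the lowest. The neighbouring family member Cyp4a10 followed with 67.4 and 1004 scaled CPM (14.9-fold). Summed over 8 symbols, the Cyp4a family stood at 881 and 2866 scaled CPM. Its reads can be split between near-identical copies, and the male-biased member Cyp4a12a, at 487 and 550, made up much of the low sitosterol sum.

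The acyl-CoA thioesterases, which release free fatty acids from their CoA esters, moved with them. Acot3, a peroxisomal form, had 0.519 and 22.3 scaled CPM (21 and 996 counts; log2 5.39, 4.81 to 6.12), and the cytosolic Acot1 had 10.3 and 83.7 (8.12-fold). Acot1 to Acot6 as a family summed to 23.0 and 141 scaled CPM, with 4 of the 4 members analysed higher. Acaa1b, a peroxisomal thiolase that completes a round of beta-oxidation, rose 4.67-fold from 750.0 to 3501 scaled CPM, and was among the genes that gained the most level of all. Ehhadh, the peroxisomal hydratase and dehydrogenase, had 162 and 557 scaled CPM. Crat, which passes acyl groups to carnitine for export from the peroxisome, had 39.6 and 122 (both named after their values were seen).

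Fatty acid entry and fuel choice were part of the block. Cd36, a fatty acid transporter of the cell surface, had 35.8 scaled CPM in the low sitosterol liver and 141.5 in the ergosterol liver, with 90.7 and 134 in the high sitosterol and stigmasterol livers. Pdk4, the kinase that shuts pyruvate out of oxidation, rose from 2.64 to 10.7 scaled CPM (107 and 477 counts; log2 2.01, 1.71 to 2.33). The receptor gene itself, Ppara, had 17.2 scaled CPM with low sitosterol and 66.8 with ergosterol (log2 1.96, 1.84 to 2.08), while high sitosterol and stigmasterol stood at 17.7 and 16.8. The ergosterol liver alone was high for it. On the TPM scale the ratio of Ppara was 1.09, since the mean transcript length estimated for it was longer in that library (log2 1.28). Of the mitochondrial arm, Cpt1a, the gate of uptake, had 306 and 398 scaled CPM (named after its values were seen). Peroxisome biogenesis and transport genes had 2 of 27 higher, among them the fatty acid carrier Abcd2 (6.35 and 23.1 scaled CPM), with a median of 0.14. Across all genes 5.29% were higher, so 2 of 27 is near the background.

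**Figure D3:**
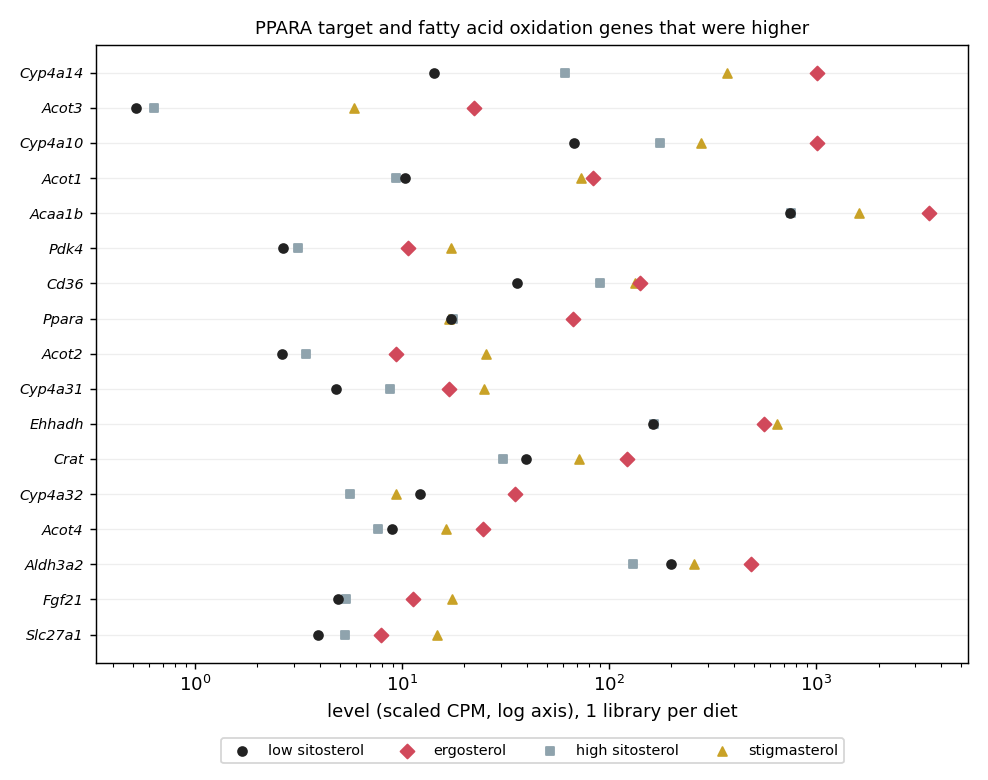
Levels in scaled CPM (log axis) of the 17 fatty acid oxidation genes that were higher with ergosterol, 1 library per diet; black circles are low sitosterol, red diamonds ergosterol, grey squares high sitosterol and ochre triangles stigmasterol. Ergosterol is the right-most point for Cyp4a14 (1009), Cyp4a10 (1004) and Ppara (66.8), while for Ppara the other diets lie together at 16.8 to 17.7.

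PPARA binds as a pair with RXR to a direct repeat of a hexamer spaced by 1 base. The strict form searched here, GGNCANAGGNCA on either strand, was found in the 250 bases before the start of 2 of the 41 oxidation genes with a RefSeq promoter (GRCm38.p6), Acot4 and Fabp1, against 0.670% of all 27025 promoters and 0.787% of the 9025 of genes analysed. Both are shown because one was higher and the other was not: Acot4 had 8.92 and 24.6 scaled CPM (log2 1.46), and Fabp1, the fatty acid binding protein of hepatocytes, 7122 and 4265 (log2 -0.74). Acot4 (a thioesterase) and Fabp1 are named for the match. Capitals mark the repeat and the lower case letter its spacer, read on the strand where it matches.
Acot4, chromosome 12, 84038366 to 84038377: GGCCAaAGGTCA
Fabp1, chromosome 6, 71199812 to 71199823: GGCCAtAGGTCA
The repeat was thus present on both sides of equality, and other forms of it, or copies farther off, are not found by this search.

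Bile acid synthesis carried one large difference. Cyp7a1, the rate-limiting enzyme of the classic pathway from cholesterol to bile acids (chromosome 4), had 548 counts in the low sitosterol liver and 6460 in the ergosterol liver. Its level went from 13.5 to 145 scaled CPM, a ratio of 10.7-fold (log2 3.42, 3.29 to 3.55), with 71.2 in the high sitosterol and 36.6 in the stigmasterol liver. The ergosterol library was the highest of the 4. Cyp8b1, which adds the hydroxyl group that makes cholic acid, had 347 and 625 scaled CPM (log2 0.85), whereas 160 and 71.9 were read with high sitosterol and stigmasterol. Cyp7b1, the oxysterol hydroxylase of the alternative pathway and itself male-biased, went the other way, from 361 to 127 (log2 -1.51). Cyp39a1 and Cyp46a1, hydroxylases of oxysterols and of cholesterol, were higher at 2.14-fold and 2.03-fold, the latter on 92 and 207 counts. In all, 3 of 17 synthesis genes were higher and 1 lower, around a median of 0.35 (0.17 to 0.85).

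Receptors of the bile acid loop were close together in the libraries. Nr1h4, which encodes FXR, had 69.4 and 90.6 scaled CPM, and its target Nr0b2, the repressor SHP that holds Cyp7a1 down, had 36.2 and 57.1 (log2 0.66). The exception was Nr1i3, which encodes the xenobiotic receptor CAR, at 30.5 and 113 scaled CPM (log2 1.89, 1.80 to 1.98), the only one of the 9 analysed to pass the rule. Among 17 transporters of bile acids, sterols and phospholipids 4 were higher and 1 lower. Abcc3, which exports conjugates back to blood, rose from 55.4 to 241 scaled CPM (4.35-fold), and the uptake carrier Slco1a4 from 11.2 to 23.9. Abcb11, the canalicular bile salt pump, had 464 and 529, and Slc10a1, which takes bile salts up from blood, 910 and 576 (log2 -0.66). Abcb1b, a drug efflux pump, was lower (206 and 28 counts; log2 interval -3.65 to -2.45).

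LXR targets numbered 20, of which 5 were higher and none lower, with a median of 0.53 (0.13 to 0.92). Of these 5, Cyp7a1, Abcg5 and Abcg8 are described above. Lpl, the lipase that frees fatty acids from lipoproteins, had 25.7 scaled CPM in the low sitosterol liver and 129 in the ergosterol liver (log2 2.33), below the 259.5 and 433 of the high sitosterol and stigmasterol livers. Pltp, which moves phospholipid between lipoproteins, had 101 and 217. The cholesterol exporter Abca1 had 102 and 110 scaled CPM (log2 0.11), and Abcg1, which is prominent in macrophages, 4.08 and 6.72 (165 and 300 counts; log2 0.72). The members called were thus Abcg5 and Abcg8, Cyp7a1 of bile acid synthesis, and Lpl and Pltp of lipoprotein handling, while Abca1 differed little. Abcg8 is the gene knocked out in both mice, so the ratios of Abcg5 and Abcg8 are no read-out of sterol export. Reads of one may be counted for the other, so they may not be separate calls.

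Of 21 enzymes of cholesterol synthesis 3 were lower and 1 higher, and the median was -0.28 (-0.54 to -0.0017). Sqle, the squalene epoxidase, went from 41.3 to 13.9 scaled CPM (1673 and 623 counts; log2 -1.57, -1.70 to -1.43). Mvd and Nsdhl, of the mevalonate arm and of sterol demethylation, were lower by 2.83-fold and 2.02-fold. Nsdhl fell short of 2-fold with total counts, on both TPM scales and against length classes, and Mvd on log2(TPM + 1). The median of this list turned positive on both TPM scales, at 0.14 and 0.12, where the all-gene medians were 0.39 and 0.29. It stayed below the all-gene median in all 10 alternatives. Of 16 genes of sterol feedback, uptake and egress, Osbpl3, an oxysterol binding protein (4.15 and 19.8 scaled CPM), and Lipa, the lysosomal lipase that frees cholesterol and fatty acids (139 and 297), were higher.

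Fatty acid and triglyceride synthesis had 2 higher and 3 lower of 26, around a median of 0.09, or -0.01 against length classes. Scd1, the desaturase that makes oleate, gained more level than any other gene, from 15764 to 29778 scaled CPM (log2 0.92), and stayed under 2-fold. Its deposited estimate in the ergosterol library is listed as exactly 1330000, so its precision is less than its count implies. Fasn, the synthase, had 1163 and 1321. Gpam and Mogat1, acyltransferases of the glycerolipid routes, were higher, at 21.5 and 86.3 scaled CPM and at 30 and 161 counts (log2 2.26, 1.71 to 2.90). Lpin1, a phosphatidate phosphatase, fell from 793 to 134 scaled CPM (5.93-fold lower), and Thrsp, a lipogenic regulator, from 1385 to 272. Both were at lower levels again, 43.6 and 40.6 scaled CPM, in the stigmasterol library.

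In the lipid droplet list 5 of 17 genes were higher and 1 lower, around a median of 0.91 (-0.04 to 1.28). G0s2, which inhibits the main triglyceride lipase, had 22.0 and 114.5 scaled CPM (892 and 5112 counts; log2 2.38, 2.27 to 2.48). The droplet fusion genes Cidec (5.83 and 16.6) and Cidea (7 and 66 counts) were higher, as were Fitm1, which helps droplets bud (23.4 and 58.0), and the coat gene Plin4 (4.28 and 10.4). Plin2, the coat of hepatocyte droplets, had 474 and 889 (log2 0.91). Abhd5, the coactivator of that lipase, was lower (70.9 and 34.0), though its TPM ratio was only -0.20. Among 25 apolipoprotein and remodelling genes, Ces1d, a lipase of the endoplasmic reticulum (189 and 735 scaled CPM), Vldlr (41 and 242 counts) and Lpl were higher. Angptl8, an inhibitor of Lpl that follows feeding, was lower by 9.62-fold, from 257 to 26.7 scaled CPM. Apoa4 had 4341 and 2229 (log2 -0.96) and Apoa1 13366 and 8815.

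The endoplasmic reticulum list was lower throughout most of its range. Of 30 chaperone and unfolded protein response genes, 10 were lower and none higher, with a median of -0.71 (-1.01 to -0.33), or -0.62 against length classes. Xbp1, the transcription factor that drives much of this response, had 19696 counts in the low sitosterol liver and 7175 in the ergosterol liver. Its level went from 487 to 161 scaled CPM (log2 -1.60, -1.64 to -1.56), with 215 and 146 in the other livers. Low sitosterol was the highest of the 4. Hspa5, the chaperone BiP that also holds the stress sensors inactive, had 1345 and 591.5 scaled CPM (log2 -1.19), and 641 and 422 with high sitosterol and stigmasterol.

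Creld2, a secreted folding factor, showed the lowest ratio of the list, from 139 to 30.6 scaled CPM (4.54-fold lower; log2 -2.18, -2.27 to -2.10). Manf, a stress-induced secreted protein (244 and 73.5), Sdf2l1, a partner of BiP (74.7 and 22.8), and Derl3, of the export of misfolded protein (289 and 86 counts), were lower by 3.31-fold, 3.27-fold and 3.69-fold. Syvn1, the ubiquitin ligase of that export, and Hyou1, an exchange factor of BiP, were lower by 2.45-fold and 2.16-fold. On the log2(TPM + 0.1) scale, where the all-gene median was 0.39, Hspa5, Syvn1 and Hyou1 stood at -0.58, -0.94 and -0.68, short of 2-fold. Creld2 (-1.76), Manf (-1.23), Sdf2l1 (-1.29) and Xbp1 (-1.11) still passed. At the other end Atf6, a stress sensor, had a ratio of 0.17 and Edem1, of misfolded glycoprotein disposal, 0.15 (both named after their values were seen).

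Many genes of this list share a promoter element, the endoplasmic reticulum stress element, bound by NF-Y and by ATF6 or XBP1. Its strict form, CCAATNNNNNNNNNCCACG on either strand, lay in the 250 bases before the start of 9 of the 24 members with a RefSeq promoter (37.5%), against 0.122% of all 27025 promoters of that length and 0.166% of those of genes analysed. Of the 8 members that were lower and have a promoter, 4 held it. The elements of the 9 genes that hold it are printed to show the sequence they share. Capitals are the fixed letters, read on the matching strand.
Creld2, log2 ratio -2.18: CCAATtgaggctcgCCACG
Derl3, log2 ratio -1.89: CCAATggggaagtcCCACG
Syvn1, log2 ratio -1.30: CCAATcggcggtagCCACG
Hspa5, log2 ratio -1.19: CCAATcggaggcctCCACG
Hsp90b1, distal, log2 ratio -0.98: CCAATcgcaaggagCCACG
Hsp90b1, proximal, log2 ratio -0.98: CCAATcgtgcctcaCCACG
Pdia6, log2 ratio -0.80: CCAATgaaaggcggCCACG
Calr, log2 ratio -0.65: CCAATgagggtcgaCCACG
Dnajc3, log2 ratio -0.32: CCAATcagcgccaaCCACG
Canx, log2 ratio -0.30: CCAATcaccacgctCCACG
All 9 genes had ratios below 0, from -0.30 to -2.18, and the 9 letters between the fixed ends differed in every element. Low ratios were common in the list with or without the element, as only 4 of its 30 genes lay above the all-gene median. Hsp90b1, Pdia6, Calr, Dnajc3 and Canx, chaperones and folding enzymes that missed the 2-fold rule, are named for their elements. A match is a description and not a measured site of binding.

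Around its element, which lies on the reverse strand 126 bases before the start at its far end, the Creld2 promoter (GRCm38.p6 chr15:88819396-88819645, plus strand, RefSeq) reads as follows, with the element in capitals.
Creld2 promoter: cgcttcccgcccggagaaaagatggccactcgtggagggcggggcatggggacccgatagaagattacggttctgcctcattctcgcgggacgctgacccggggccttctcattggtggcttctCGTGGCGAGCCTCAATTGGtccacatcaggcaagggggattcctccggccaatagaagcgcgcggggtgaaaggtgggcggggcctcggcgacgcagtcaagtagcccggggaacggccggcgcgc
The Hspa5 promoter (chr2:34771840-34772089, plus strand) carries its element on the forward strand, 65 bases before the start at its far end. It also held the only match in the list to TGACGTG (either strand), the core of the XBP1 element, which 1.61% of all promoters and 2.23% of those of genes analysed hold.
Hspa5 promoter: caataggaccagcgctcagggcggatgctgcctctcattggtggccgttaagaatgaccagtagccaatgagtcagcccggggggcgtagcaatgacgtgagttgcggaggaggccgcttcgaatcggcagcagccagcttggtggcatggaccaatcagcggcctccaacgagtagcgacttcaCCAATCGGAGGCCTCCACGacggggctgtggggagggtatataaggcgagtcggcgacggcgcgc

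**Figure D4:**
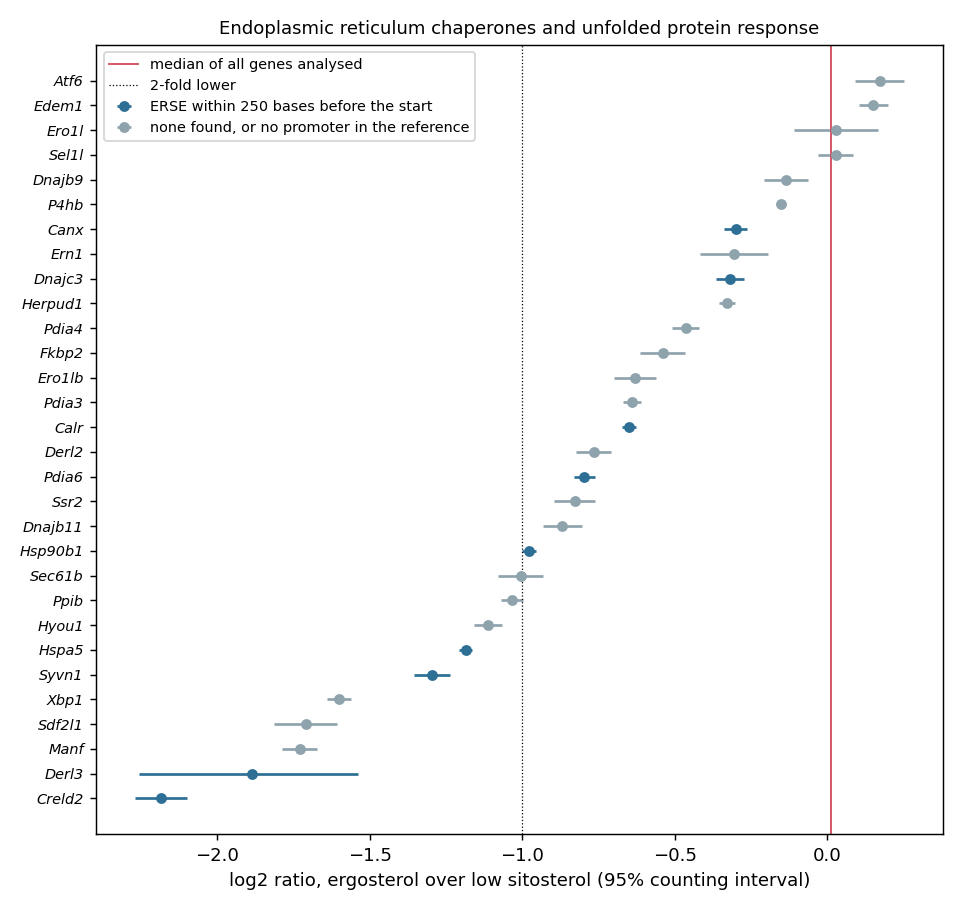
Log2 ratio with its 95% counting interval for the 30 endoplasmic reticulum genes, in blue where the promoter holds the stress element; the red line is the all-gene median and the dotted line 2-fold lower. The blue points run from Creld2 at -2.18 to Canx at -0.30.

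Cytosolic heat shock genes lay lower as well, with 2 of 18 lower, none higher and a median of -0.82 (-0.96 to -0.36), or -0.65 against length classes. Hspa1a, the inducible chaperone of the HSP70 family, had 370 and 183 counts, or 9.14 and 4.10 scaled CPM, and Hsp90aa1 332 and 161. Both were higher in the high sitosterol liver, where Hspa1a reached 453. Reads of Hspa1a cannot be told with certainty from those of its near copy Hspa1b. Hsf1, the factor that induces them, had 13.8 and 12.2. Neither reached 2-fold on the log2(TPM + 0.1) scale, where the ratios were -0.71 and -0.63 and the all-gene median was 0.39.

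In the integrated stress response 4 of 33 genes were higher and 7 lower. The list median, -0.32, turned positive in 2 of the 10 alternatives but stayed below the all-gene median in all 10. Asns, which makes asparagine, had 99 counts in the low sitosterol liver and 9 in the ergosterol liver, 2.45 and 0.202 scaled CPM (log2 -3.53, -4.77 to -2.62). High sitosterol stood at 3.63 and stigmasterol at 12.7, so ergosterol was the lowest of the 4. Psat1 of serine synthesis (113 and 33 counts), Aldh18a1 of proline synthesis (176 and 66) and the cationic amino acid carrier Slc7a1 (61 and 23) were lower, as were the stress regulators Nupr1 (284 and 106) and Trib3 (923 and 433). Psat1, Slc7a1 and Trib3 fell short of 2-fold on both TPM scales, and Nupr1 on log2(TPM + 1). Atf4 itself had 86.0 and 58.7 scaled CPM (log2 -0.55). Sesn2, a leucine sensor, was higher (4.84 and 11.6), as was Vldlr.

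The ATF4 element TGATGNAA was found on either strand in 7 of the 27 members with a promoter (25.9%), against 3.53% of all promoters and 2.02% of those of genes analysed. Among them Asns and Nupr1 were lower and Fgf21, a hormone of the fasted liver that PPARA also drives, was higher (198 and 506 counts; log2 1.21). Fgf21 was named after its values were seen. The Asns promoter (chr6:7693210-7693459, minus strand) is shown because Asns had the lowest ratio of the list, with its element in capitals 23 bases before the start at its far end.
Asns promoter: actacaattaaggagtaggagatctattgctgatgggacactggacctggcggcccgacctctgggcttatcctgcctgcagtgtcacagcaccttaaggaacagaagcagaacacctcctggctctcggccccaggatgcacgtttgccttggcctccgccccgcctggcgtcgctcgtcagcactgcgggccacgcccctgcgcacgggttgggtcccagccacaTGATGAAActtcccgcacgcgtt

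Clock genes differed in both directions. The clock is a loop in which Arntl with Clock or Npas2 switches on the Per, Cry, Nr1d1, Ciart and Bhlhe genes, whose products shut the loop down, and output genes such as Dbp, so the arms of the loop peak at opposite hours. Of 27 clock and output genes 4 were higher and 8 lower. Arntl, the activator BMAL1, had 150 counts in the low sitosterol liver and 571 in the ergosterol liver, 3.71 and 12.8 scaled CPM (log2 1.78, 1.52 to 2.06). Npas2, its partner, had 15 and 172 counts (log2 3.33, 2.61 to 4.25), and Nfil3, a repressor that opposes Dbp, 15.6 and 61.6 scaled CPM (log2 1.98).

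The output arm was lower. Dbp, a factor that carries the rhythm to metabolic genes, had 5153 counts with low sitosterol and 275 with ergosterol. Its level went from 127 to 6.16 scaled CPM, 20.6-fold lower (log2 -4.37, -4.55 to -4.20), and stood at 169 with high sitosterol and 7.99 with stigmasterol. Ciart (315 and 18 counts), Bhlhe41 (1073 and 64) and Bhlhe40 (334 and 63.4 scaled CPM), repressors of the activator arm, were lower by 18.8-fold, 18.4-fold and 5.27-fold. Usp2, a rhythmic deubiquitinase (11.8 and 3.29), and Alas1, which starts heme synthesis (963 and 192), were lower by 3.57-fold and 5.01-fold. Nr1d1 (191.8 and 91.5), which encodes REV-ERB alpha, was 2.10-fold lower, and Per1 (31.0 and 15.9) and Per2 (11.1 and 5.57) stayed just under 2-fold (these 3 named after their values were seen).

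The other livers lay on both sides. For Arntl high sitosterol had 1.78 scaled CPM and stigmasterol 15.9, and for Ciart 20.2 and 0.577, so low and high sitosterol lay on one side and ergosterol and stigmasterol on the other. The hour at which each liver was taken is not stated in the labels, and its part in these ratios was not tested. Rhythmic genes in other lists, such as Cyp7a1, Alas1 and Angptl8, are under the same limit.

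**Figure D5:**
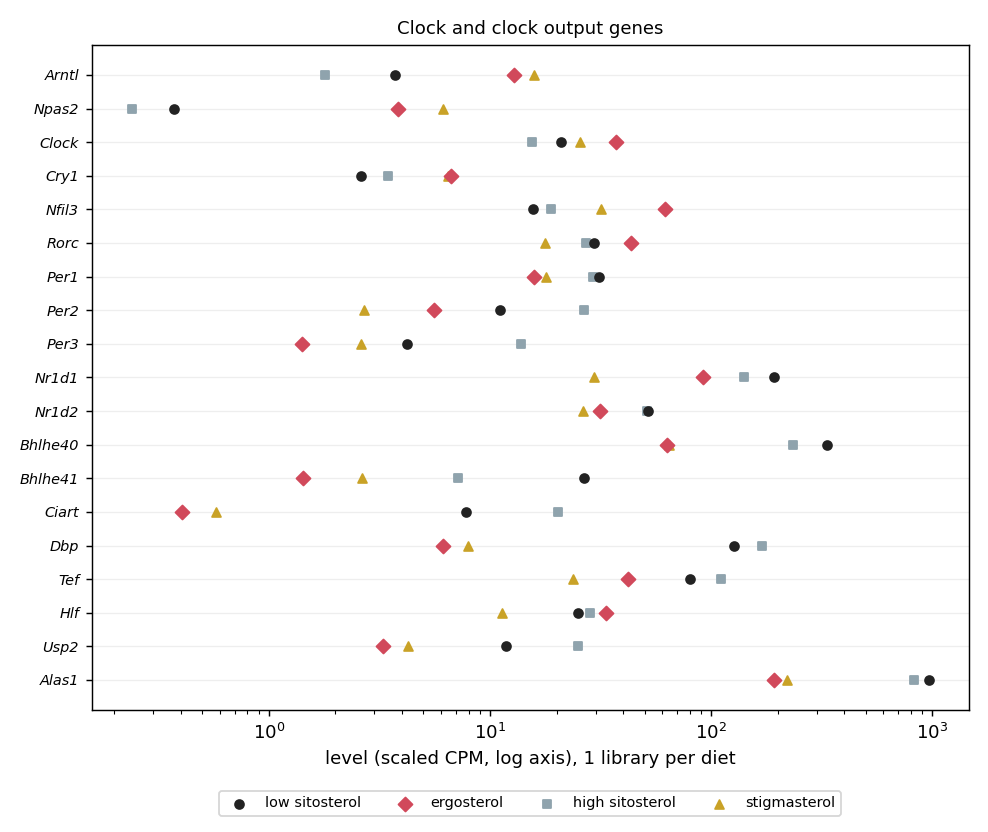
Levels in scaled CPM (log axis) of 19 clock and clock output genes in the 4 livers, 1 library per diet; black circles are low sitosterol, red diamonds ergosterol, grey squares high sitosterol and ochre triangles stigmasterol. For Arntl and Npas2 the ergosterol and stigmasterol points lie to the right of the sitosterol points, and for Dbp, Ciart, Bhlhe40 and Usp2 to their left.

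The E-box CACGTG, the site of the activator pair, was present in the 250-base promoters of 5 of 22 clock genes (22.7%), against 6.05% of all promoters and 8.60% of those of genes analysed: Per1, Cry1, Tef, Bhlhe41 and Ciart. They went both ways, since Cry1, a repressor that peaks late in the loop, was higher (106 and 296 counts; log2 1.33) and Tef, a relative of Dbp, had a ratio of -0.93 (both named for the match). The D-box TTANGNAA was found in 3 of 22 members, against 10.4% of all promoters and 7.70% of those of genes analysed, and the RORE, the element of the ROR and REV-ERB receptors, in none, against 0.185% and 0.133%, each on either strand. Ciart is shown because it held 3 E-boxes, in capitals, in its promoter (chr3:95882229-95882478, minus strand) and Bhlhe41 because it had 1 (chr6:145865421-145865670, minus strand) with nearly the same ratio.
Ciart promoter: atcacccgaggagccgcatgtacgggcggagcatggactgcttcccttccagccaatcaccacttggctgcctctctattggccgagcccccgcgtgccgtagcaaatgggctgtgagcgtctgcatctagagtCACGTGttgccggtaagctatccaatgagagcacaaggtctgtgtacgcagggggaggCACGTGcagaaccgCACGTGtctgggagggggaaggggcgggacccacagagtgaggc
Bhlhe41 promoter: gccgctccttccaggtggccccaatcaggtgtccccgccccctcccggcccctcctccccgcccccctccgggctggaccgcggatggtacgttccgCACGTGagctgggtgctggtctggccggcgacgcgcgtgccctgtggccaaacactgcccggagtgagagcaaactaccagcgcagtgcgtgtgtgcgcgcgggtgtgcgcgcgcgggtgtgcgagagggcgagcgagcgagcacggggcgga

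Immediate early genes, which respond within minutes to growth factors, stress and handling, had 13 higher and 3 lower of 29, around a median of 0.76. That median was 0.62 against length classes, 0.47 with no filter on low levels and 1.33 with a filter at 10 CPM. Myc had 120 and 1558 counts, from 2.97 to 34.9 scaled CPM (log2 3.55, 3.29 to 3.84), and Fos 184 and 1317 (log2 2.69). Gadd45g, a stress and growth arrest gene, had 649 and 8571 counts (log2 3.58), and Jun (22.1 and 98.9) and Zfp36, which destabilises cytokine mRNA (50.4 and 273), were higher by 4.47-fold and 5.42-fold. For Myc the stigmasterol liver stood at 33.0, next to ergosterol, and for Fos at 6.25, next to low sitosterol. Klf10, a TGF-beta responsive factor, was lower (131 and 14.2; 9.21-fold), as were Gadd45b (319 and 49 counts) and the survival gene Ier3 (198 and 49). Of 19 p53 targets 3 were higher: the cell cycle inhibitor Cdkn1a (11.1 and 35.9 scaled CPM), Trp53inp1 (20.1 and 64.9) and the kinase Plk2 (2.35 and 6.29). Mdm2, the feedback inhibitor of p53, had 15.6 and 22.3 (log2 0.52).

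Cell cycle genes stood at low levels in both livers. Mki67, a marker of cycling cells, had 14 and 84 counts, or 0.346 and 1.88 scaled CPM, against 8.01 with high sitosterol and 32.0 with stigmasterol. Cdc20, which triggers exit from mitosis, had 14 and 96 counts, Cdk1 28 and 72 and Aurka 60 and 147. Those 4 were higher and Ccne1, a cyclin of S phase entry (103 and 22 counts), and Rrm2, of nucleotide supply (485 and 191), lower, among 24 cell cycle genes.

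Of 33 male-biased genes 19 were lower and 1 higher, with a median of -1.28, or -0.93 against length classes. The major urinary proteins, secreted pheromone carriers, account for much of it. Summed over 21 symbols, Mup genes had 88984 scaled CPM in the low sitosterol liver and 30130 in the ergosterol liver (2.95-fold lower), with 14741 and 4044 in the high sitosterol and stigmasterol livers. Low sitosterol was the highest of the 4. Mup20, the pheromone darcin, fell 7.35-fold, from 12521 to 1703 scaled CPM, Mup21 5.41-fold and Mup7 3.85-fold, whereas Mup19 had 11607 and 7273 (1.60-fold). Reads of these near-identical genes can be split between copies, so the family sum is firmer than its members.

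Outside that family Selenbp2, a selenium-binding protein, had 616 and 50.3 scaled CPM (24936 and 2245 counts; log2 -3.62, -3.68 to -3.55). Serpina1e, a male-biased antitrypsin copy, had 7322 and 827, Scara5, a ferritin receptor, 24.5 and 2.42, and Gstp1, a glutathione transferase, 2876 and 1071. Reads of Serpina1e can be split with its near-identical copies. Summed over 6 symbols, the Serpina1 family had 40903 and 24725 scaled CPM, 1.65-fold lower. The male-biased exception was Cyp4a10, which belongs to the oxidation block above, and Cyp4a12a was near even. Of 13 female-biased genes analysed 3 were higher (Acot3, Lpl and Abcd2) and 2 lower, Cyp2c40 (63.3 and 14.5 scaled CPM) and Cyp2c69 (10.7 and 2.42). With no filter on low levels 9 were higher and 2 lower, and the median of 0.57 became 1.39 with a filter at 10 CPM. On the growth hormone axis, which sets sex bias in liver, Cish and Socs2, feedback genes of STAT5, were lower (50.3 and 20.6; 63.7 and 26.7 scaled CPM), though short of 2-fold in TPM at -0.73 and -0.45. Bcl6, a repressor that opposes STAT5, was higher (15.6 and 52.8; log2 1.76), as was Stat5a (5.04 and 14.6). Onecut1, a liver transcription factor, was lower by 9.75-fold (61.0 and 6.25). Igf1 had 589 and 392.5 and the receptor Ghr 475 and 413.

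Drug-metabolising genes under CAR and PXR had 9 higher and 2 lower of 30, around a median of 0.37 (0.15 to 0.97). Cyp2b10, the classic CAR target, had 5 counts in the low sitosterol liver and 90 in the ergosterol liver, 0.124 and 2.02 scaled CPM (log2 3.90, 2.75 to 5.68), so its level remained low. Stigmasterol stood at 8.11. Cyp2c29 was abundant, at 413 and 1130 scaled CPM (log2 1.45), and Cyp2c55 (62 and 251 counts) and the transferase Gstt3 (26.3 and 81.0) were higher. Nr1i2, which encodes PXR, had 69.4 and 56.0. The lower members, Gadd45b and Alas1, belong also to other lists. Of 29 NRF2 and glutathione genes 4 were higher and 2 lower: Gsta1 (13 and 187 counts), Gsta2 (4.89 and 21.4 scaled CPM) and Gsta4 (20.5 and 47.4) are glutathione transferases, and Gclc (104 and 228) makes glutathione. G6pdx, which supplies NADPH, was lower (50.1 and 15.7). Nfe2l2, which encodes NRF2, had 52.7 and 60.8, and Nqo1, its usual reporter, 2.40 and 4.14.

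Of 27 metallothionein, iron and heme genes 5 were lower and none higher, around a median of -0.13. That median changed sign in 4 of the 10 alternatives, and in 1 when taken relative to the all-gene median. Mt2 and Mt1, the metallothioneins that buffer zinc and copper, had 71.2 and 8.15, and 124 and 34.2 scaled CPM (log2 -3.13 and -1.86), against 514 and 921 in the high sitosterol liver. Hamp, the iron hormone hepcidin, had 1410 and 583 (log2 -1.27; -0.85 in TPM), and Id1, a BMP target that tends to move with it, 35.6 and 6.65 (log2 -2.42). Alas1 was the fifth.

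Glucose handling was mixed, with 5 of 28 genes higher and 3 lower. The insulin receptor substrates Irs1 (57 and 464 counts; log2 2.87, 2.48 to 3.31) and Irs2 (13.7 and 59.3 scaled CPM; log2 2.11) and Igfbp1, which insulin represses (148 and 391), were higher. Pfkfb3, which pushes glycolysis, was lower (81.9 and 7.41; log2 -3.46), and Ppp1r3c, which targets a phosphatase to glycogen, 4.03-fold lower (145 and 35.9). Whether the mice were fasted before the livers were taken is not stated in the labels. G6pc, the last step of glucose output, had 507 and 460, and Pck1, an early step, 1831 and 2700 (log2 0.56). Tat, a tyrosine aminotransferase, was 2.10-fold higher (750.2 and 1575) and the sole call among 41 genes of the urea cycle and amino acid breakdown, where Cps1 had 2351 and 2561.

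Zonation genes differed by subset. Of 22 genes of hepatocytes around the central vein 7 were higher and none lower. Tbx3 (6.75 and 28.3 scaled CPM), Rnf43 (5.68 and 17.4), Lgr5 (90 and 301 counts) and Axin2 (95 and 286), read-outs of Wnt signalling, were higher by 4.20-fold, 3.06-fold, 3.02-fold and 2.72-fold, as were Cyp2c29, Aldh1a1 and Ahr. Glul (1256 and 989) and Cyp2e1 (8643 and 8240), the abundant markers of that zone, were near even. Among 19 periportal genes the protease gene Ctsc was higher and Mup20 lower, with Cyp2f2 at 619 and 815. Of 34 hepatocyte identity and secreted protein genes, Prox1 was higher (25.6 and 72.8) and Foxa3 (112 and 36.9) and Onecut1 lower, while Alb differed by 1.05-fold.

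Of 27 acute phase genes 4 were lower and none higher: Serpina3k, a protease inhibitor (21487 and 7824 scaled CPM), Lcn2 (6.97 and 2.80), Hamp and the metalloreductase Steap4 (170.1 and 82.0). Saa1 had 58.7 and 81.6. Chemokine and cytokine genes had 4 of 22 lower and none higher, of which Il1r1, the interleukin 1 receptor, was the most abundant (102 and 26.8; log2 -1.93) and Ccl2, which draws monocytes, the least (52 and 17 counts). With 5.29% of all genes higher, a count of 0 in lists of this size is near the background. On log2(TPM + 0.1), where 1477 of all genes were higher against 628, 2 acute phase and 3 chemokine and cytokine genes were higher. There 1 acute phase and 3 chemokine and cytokine genes were lower, as Lcn2, Hamp and Steap4 fell short of 2-fold. The acute phase median, -0.34, became 0.08 on that scale, where the all-gene median was 0.39. Interferon-stimulated genes had neither call among 29, with a median of -0.0015.

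The macrophage list had a median of 0.48, or 0.63 against length classes. Of its 22 genes, Adgre1, which encodes F4/80 (229 and 806 counts; 5.66 and 18.0 scaled CPM), Timd4 (3.02 and 6.85) and Cd5l (57.6 and 122) were higher, and Id3 lower (70.3 and 32.2). The 12 defining markers summed to 387 and 608 scaled CPM, against 1180 and 764 in the high sitosterol and stigmasterol livers, with none at 0. All 8 class II antigen presentation genes had ratios between 0.23 and 0.86, none of them called. Of 18 genes of lipid-associated macrophages 4 were higher and 1 lower, and 7 defining markers summed to 137 and 194 scaled CPM. Lpl, Cd36 and Lipa, given above, and the elastase Mmp12 (15 and 49 counts; log2 1.53, 0.71 to 2.51) were higher, and Fabp5, a fatty acid binding protein, was lower, at 764 and 169 scaled CPM. Trem2, a lipid receptor of these cells, had 52 and 70 counts (log2 0.28, -0.25 to 0.83).

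Markers of rarer blood cells differed in both directions, and their part in other results was not tested. Neutrophil genes were lower in 4 of 6: S100a8 had 100 and 14 counts and S100a9 156 and 20, and the marker sum was 10.4 and 3.27 scaled CPM, with Ly6g at 0 in both and Camp and Retnlg at 0 with ergosterol. B cell genes split, as the receptor genes Cd79a (8 and 55 counts) and Cd79b (15 and 65) and the IgM constant gene Ighm (8.72 and 19.7 scaled CPM) were higher. The switched constant genes Ighg1 (54 and 3 counts), Ighg2b (142 and 37) and Igha (92 and 43) were lower. Stellate and smooth muscle genes had 2 of 25 lower, Acta2 (10.5 and 2.98) and Tagln (16.9 and 7.64), while Col1a1 had 10.2 and 7.19, against 177 with stigmasterol. No cholangiocyte or erythroid gene was called. Of 19 endothelial genes Lyve1 alone was lower (7.41 and 2.89), and Pecam1 was even at 12.9 and 13.0.

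Adipocyte genes need their members named. Cfd, the protease adipsin, had 100 and 1549 counts, or 2.47 and 34.7 scaled CPM (log2 3.80, 3.52 to 4.12), and 2.63 and 0.519 in the high sitosterol and stigmasterol livers. With Cidea, Cidec and Car3 (1062 and 2356) it made up 4 higher of 8. The adipocyte hormones Lep and Retn were at 0 in the ergosterol liver, and the summed markers, 19.0 and 57.5 scaled CPM, rose through Cfd. With no filter on low levels, which adds such genes, 4 were higher and 4 lower, and the median went from 0.97 to 0.0041.

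Genes of protein and energy machinery lay lower with small ratios. Of 69 cytosolic ribosomal protein genes 6 were lower, led by Rps18 (571 and 229 scaled CPM; log2 -1.31), none was higher and the median was -0.58 (-0.66 to -0.53). Against length classes that median was -0.33, and Rpl3 and Rpl4 had ratios of -0.46 and -0.36. The 41 nuclear genes of oxidative phosphorylation had no call and a median of -0.35, or -0.09 against length classes. That median turned positive in 2 of the 10 alternatives, up to 0.01, but stayed below the all-gene median in all 10. Of 13 mitochondrially encoded genes mt-Nd3 (1436 and 483) and mt-Atp6 (9671 and 4604) were lower. The pseudogene symbols Gm10925 (478 and 1822 scaled CPM) and Gm28438 (70 and 12477 counts, named after its values were seen) were higher, and reads of pseudogenes can be split with their parent genes. The same holds for Rpl10-ps1 (2477 and 0 counts, the latter a limit of 0.0672 scaled CPM), Serpina4-ps1 (8107 and 618), Scp2-ps2 (2809 and 195) and AW822252 (130539 and 877; also named after its values were seen).

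Several of the most extreme ratios fell outside any list. Moxd1, a monooxygenase-like gene, had 3876 and 11 counts (95.8 and 0.246 scaled CPM; log2 -8.54, -9.61 to -7.76) and Stox2 2774 and 19 (log2 -7.30). Both stood below 1 scaled CPM in every liver but low sitosterol. On the higher side Rnf125, a ubiquitin ligase, had 4.28 and 44.3 scaled CPM (10.3-fold), the cell surface genes Adam11 3.29 and 27.5 and Clstn3 2.77 and 29.4, Ildr2, a lipid-linked gene of the endoplasmic reticulum, 3.36 and 18.9, and the carrier Slc16a5 2.05 and 11.5. Clstn3 and Cyp7a1 had a shorter mean effective transcript length with ergosterol, by log2 -1.04 and -0.72, so their TPM ratios were larger (4.70 and 4.51). Pzp, a protease inhibitor of plasma, shifted to longer ones (1.04): it had 3055 and 3997 scaled CPM but a TPM ratio of -0.24. Of 9951 genes with a length estimate 68.5% were within 0.1 of the common shift and 46 were at least 1 away. Atp2b4, a calcium pump, had the largest shift (2.87), with 119 and 108 counts, and its TPM ratio of -2.38 stood against a count ratio of -0.28.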

How the data were processed

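Per the labels' protocols, RNA from 1 liver per diet was purified on Qiagen RNeasy columns and sequenced from unstranded TruSeq libraries (RNA kit v2). Per the submitters' processing notes, kallisto 0.43.1, HISAT2 2.0.5 and Trimmomatic 0.33 were used with mm10, in roles not stated. The authors deposited estimated counts per gene symbol, of which 39.1% (low sitosterol) and 40.4% (ergosterol) were not whole, and TPM values for the same libraries. The annotation and the way transcripts were summed to genes are not given in the sources used here.

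Estimated counts were rounded and 1 row naming no gene was left out. TMM factors came from edgeR 4.0.16 (R 4.3.3) over the 4 livers. Log2 ratios used a prior count of 0.5. The binomial intervals cover counting error only, as PCR copies are no independent molecules. Coordinates are those of GENCODE M21, matched by 11654 of the 11872 genes, and promoters those of RefSeq (GRCm38.p6), matched by 9025. The calling of genes was tested on simulated data that held counting error only. The intervals rest on the same counting model, so that test says nothing of spread between mice or of split reads.

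Genes named are Abcg8 and Abcg5, among ordinary symbols at 10 scaled CPM or more the 20 highest and 20 lowest ratios, the 15 largest gains and losses of level, the first 2 members and up to 8 called members of each of 53 lists, and the 8 largest changes of mean transcript length. Of these, the text leaves out some, and some list members are counted but not reported by name here. Any other gene given with values is marked as named for a promoter match or after its values were seen, apart from cell type markers at 0. The members and lists were chosen with earlier results of these data known. Alternatives were other scalings (total counts, TMM over both libraries alone, DESeq2 1.42.0 size factors), log2(TPM + 0.1) and log2(TPM + 1), other filters (10 CPM; none), a prior count of 5, subtraction of the adrenal share and ratios against length classes; the last 2 were added after seeing the data.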

Additional observations from a re-analysis of the deposited data

How the results depend on the processing

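Of 10 alternatives, the TPM scales changed the measure, its scaling, the prior count and the calling rule together, and each of the others 1 choice. Calls on the TPM scales needed a 2-fold difference alone, with no interval. In the main comparison 0 genes past 2-fold were left uncalled by their interval. Genes higher numbered 949 with total counts, 1477 on the log2(TPM + 0.1) scale, 1064 with no filter and 252 with a filter at 10 CPM, against 628. Genes lower numbered 299 and 186 on the log2(TPM + 0.1) and log2(TPM + 1) scales, 1433 with no filter and 237 at 10 CPM, against 574; with total counts there were 427. The median log2 ratio of all genes was 0.19 with total counts, 0.0025 with TMM over both libraries alone, 0.39 and 0.29 on the TPM scales, -0.034 with no filter, 0.00071 at 10 CPM and 0 by construction against length classes. The share of calls that were higher was 69.0% with total counts, 83.2% and 78.3% on the TPM scales and 42.6% with no filter. A filter changes the number of genes tested by construction. All 628 higher calls were kept with total counts, and 427 of the 574 lower calls; on log2(TPM + 0.1) 600 and 282 were kept.

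Of 191 named genes that were called, 131 had a value in all 10 alternatives, and 104 of these kept the call in each. With the adrenal share subtracted Cyp11a1 and Hsd3b1 stayed lower, and log2 ratios turned positive for Akr1b7 (6.27), Chga (2.18), Cyp11b1 (4.81) and Cyp21a1 (6.33). For the adrenal cortex genes these outcomes were fixed by the share, a median of 0.139% over such genes, with counts held at 0 or above. Cyp11a1 (0.248%) and Hsd3b1 (0.192%), above it, kept counts in the low sitosterol liver. Akr1b7 (0.139%), Cyp21a1 (0.126%) and Cyp11b1 (0.117%), at or below it, were left with 0. Of 51 list medians, 20 changed sign in some alternative, and 13 did so when taken relative to the all-gene median of the same alternative. Fatty acid oxidation, bile acid synthesis, LXR target, lipid droplet and endoplasmic reticulum genes kept their sign in all 10 either way. So did heat shock, clock, immediate early, male-biased and ribosomal genes. No paired analysis was possible because each group is 1 mouse. For the same reason no library could be left out. A count of 0 allows up to 0.0741 scaled CPM in the low sitosterol and 0.0672 in the ergosterol liver.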

Other observations

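Vitamin D handling genes were examined because ergosterol is the parent sterol of vitamin D2. None of the 6 analysed was called. Cyp2r1, the hydroxylase that makes the circulating form, had 9.46 and 12.0 scaled CPM in the low sitosterol and ergosterol livers (log2 0.34, 0.15 to 0.53), and Gc, the carrier protein of plasma, 5996 and 5441 (log2 -0.14).

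Movement in both directions within a P450 family was seen in Cyp2c, where 4 genes were higher and 3 lower of 13 while the family sum was 3251 and 3248 scaled CPM (log2 -0.0015). The Cyp3a sum rose less than 2-fold, from 823 to 1522 scaled CPM, and the Cyp2d sum stood at 4801 and 3664.

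Cela1, a protease gene listed with the exocrine pancreas, had 1001 and 375 counts (log2 -1.56). It was the only 1 of 6 pancreatic acinar markers to reach 1 CPM in either liver, and the 6 summed to 24.9 and 8.44 scaled CPM. Among the others, all below 1 CPM in both livers, Prss2 was at 0 with low sitosterol and Cpa1, Pnlip and Ctrb1 with ergosterol.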
